A study of Mus musculus with 12 samples.

Results

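C2C12 myoblasts depleted of CCNF were compared with myoblasts depleted of both CCNF and KEAP1, which asks what loss of KEAP1 does once CCNF is low. The comparison takes 6 of the 12 libraries of the series, 3 labelled siKEAP1/siCCNF and 3 labelled siCCNF, and covers the 15122 of 54532 listed genes with enough counts to test. Its libraries were taken by these labels. C2C12 is an established mouse line of proliferating muscle precursors that can be driven to fuse into myotubes. All groups were transfected with 30 nM siRNA and harvested after 48 h, and the labels give 5% FBS in the medium, where the study's methods give another share of serum. Both groups compared carry siCCNF, and by their labels only siKEAP1 separates them. The same step without siCCNF, siKEAP1 against siCONTROL, used the 6 remaining libraries and is given beside it. The replicates are labelled biological, but their culture dates are not given, and every group is 1 cell line. Neither the siRNA against Ccnf that was sequenced nor whether 30 nM is the total in the double depletion is stated.

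KEAP1 is the substrate adaptor of a CUL3 ubiquitin ligase that binds the transcription factor NRF2 (gene Nfe2l2) and keeps it low in unstressed cells. Oxidants modify cysteines of KEAP1, NRF2 then accumulates, pairs with small MAF proteins and binds antioxidant response elements near genes for glutathione, NADPH, thioredoxin, detoxification and iron handling. CCNF, cyclin F, is the F-box adaptor of another ubiquitin ligase, whose known substrates include E2F factors and other proteins of the cell cycle. In myoblasts, NRF2 turnover bears on the choice to differentiate.

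Many antioxidant genes rose when KEAP1 was depleted in CCNF-depleted cells, and most of those that rose did so by less than in control cells. Of 89 antioxidant genes tested, 45 were higher and 0 were lower at an adjusted p under 0.05 in the edgeR test, which is 50.6% of them higher, where 3% of all genes were higher and 2.19% lower. At an unadjusted p under 0.05 edgeR gave 2 of the 89 lower, DESeq2 called 1 lower and limma on log2(FPKM + 1) called 0. Of 41 matrix genes 14 fell, led by Mmp11 and Col1a1, 2 rose and 25 were not called. Of 50 muscle differentiation genes 8 fell, Myog, Ttn and Neb among them, and 42 were not called. Genes of mitosis rose in 18 of 44 cases and genes of G1/S and replication in 13 of 54, with 2 of these 54 lower. These changes were small, and without siCCNF replicate 1 the rises were 2 and 3. Interferon response genes, of which 18 of 39 rose after siKEAP1 in control cells, and p53 targets, of which 14 of 22 did, gave 0 and 1 calls here. Of all genes, 20.4% rose in control cells. Both lists had higher sums in siCCNF than in siCONTROL. Interferon genes summed to 1570 to 2240 CPM against 661 to 1180 CPM, with 1200 to 1980 CPM after siKEAP1 alone. The p53 targets summed to 1930 to 1990 CPM against 1350 to 1480 CPM, with 1900 to 2050 CPM after siKEAP1 alone. The difference between the effects here and in control cells passed the test for 8 of the 39 and 11 of the 22, and did not for 31 and 11. Those that passed were all negative. The same test passed for 21% of all genes, with 10.5% of all genes negative.

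The total counts assigned to genes were 26039296 to 37743198 in the siCCNF libraries and 22825576 to 32216830 in the siKEAP1/siCCNF libraries, and 18464209 to 24601929 in the other 6. CPM, the usual library-scaled count, was computed with TMM factors that lay between 0.971 and 1.02. siKEAP1/siCCNF replicate 3 stood apart in its group by gene length, with a correlation of -0.276 across genes between its deviation from the group mean and log gene length, as did siCONTROL replicate 1, with -0.305. Without both libraries the count of genes changed over 2-fold was 165 rather than 110, and 44 of the 45 antioxidant genes remained called, within 52 of the 89 higher and 3 lower. The myoblast markers were present in all libraries. Myod1 and Myf5, factors that mark myoblasts, had mean CPM of 75.9 and 29.6 in siCCNF libraries, and the 8 markers summed to 814 to 836 CPM in siCCNF and 769 to 846 CPM in siKEAP1/siCCNF libraries. Of 8 markers each, 3 of adipocytes, 3 of endothelium, 2 of epithelium, 4 of macrophages, 5 of chondrocytes and 6 of osteoblasts had enough counts to test. Among markers with too few counts to test, Cidec, Itgam, Cldn5, Ibsp and Col9a1 had 0 counts in every library. Others reached low counts, at most 2 for Adipoq and Kdr, 3 for Ptprc and 13 for Pecam1. Osteoblast markers summed to 99.7 to 102 CPM in siCCNF and 88.1 to 113 CPM in siKEAP1/siCCNF libraries. Chondrocyte markers summed to 89.5 to 94.6 CPM and 66.1 to 85.7 CPM. Among the lists of these other cell types 1 gene was called, Phex of the osteoblast list, which rose from 3.79, 4.39 and 4.05 CPM to 9.29, 7.85 and 7.6 CPM. Of the myoblast markers only Ncam1 was called, with a log2 fold change of -0.35. In libraries made from whole cultures, fewer cells of a type and less RNA per cell cannot be told apart.

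Depletion of the targets was checked first. Keap1 (ENSMUSG00000003308, chr9:21229730-21239361 of GRCm38) had 86.5, 88.6 and 80.3 CPM in siCCNF replicates 1 to 3 and 22.2, 27 and 23.1 CPM in siKEAP1/siCCNF. All 3 libraries with siKEAP1 lay below all 3 without it, with a log2 fold change of -1.82 ± 0.08 (SE; edgeR quasi-likelihood test, Benjamini-Hochberg adjusted p = 4.52e-08). The decrease was smaller than in control cells, where Keap1 fell from a mean of 87.8 to 12.6 CPM, by 2.80 on the log2 scale. The difference between both effects, the interaction, was 0.98 (adjusted p = 6.99e-05). Ccnf had 19.7, 20.5 and 21.3 CPM in siCCNF and 23.7, 24.1 and 25.6 CPM in siKEAP1/siCCNF libraries, against a mean of 81.1 CPM in siCONTROL. Its log2 fold change between the groups compared was 0.26 ± 0.08 and did not pass the test (adjusted p = 0.0746), although the libraries did not overlap. DESeq2 called it, at an adjusted p of 0.0401. Both groups were low in Ccnf, and cells given both siRNAs kept 24.1 CPM of Keap1 where cells given siKEAP1 alone kept 12.6. The part of this remaining Keap1 mRNA in any smaller change below was not tested.

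Across all genes, 785 differed at an adjusted p under 0.05, or 5.19% of those tested, 454 of them higher and 331 lower after siKEAP1/siCCNF. Over 2-fold changes were called in 110 genes, or 0.727%, with 75 higher and 35 lower, which are 0.496% and 0.231% of genes tested. In control cells the same step changed 6133 genes, or 40.6% (20.4% higher and 20.2% lower), and 1735 of them over 2-fold, or 11.5% (7.59% higher and 3.88% lower). Of the 110 genes, 95 were also called over 2-fold after siKEAP1 alone, 86.4% of the 110 and 5.48% of the 1735. Among the 95, 68 were higher in both comparisons, 26 lower in both, and 1 lower here and higher in control cells. Of the 110 genes, 100 passed the adjusted p in both comparisons, and 87 of these 100 had the smaller change in CCNF-depleted cells. The interaction passed the test for 3181 genes, 21% of all (10.6% positive and 10.5% negative), and for 61 of the 110. Of 1148 genes that siKEAP1 raised over 2-fold in control cells, 724 had a negative interaction, and of 587 that it lowered, 397 had a positive one. Both sets were chosen by the value that the interaction subtracts, which by itself favours these signs, so no conclusion is drawn from their counts. The comparison in CCNF-depleted cells and that in control cells share no library. Over the 15122 genes, which are not independent replicates, their log2 fold changes correlated with r = 0.496 (Pearson) and rho = 0.359 (Spearman).

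**Figure D1:**
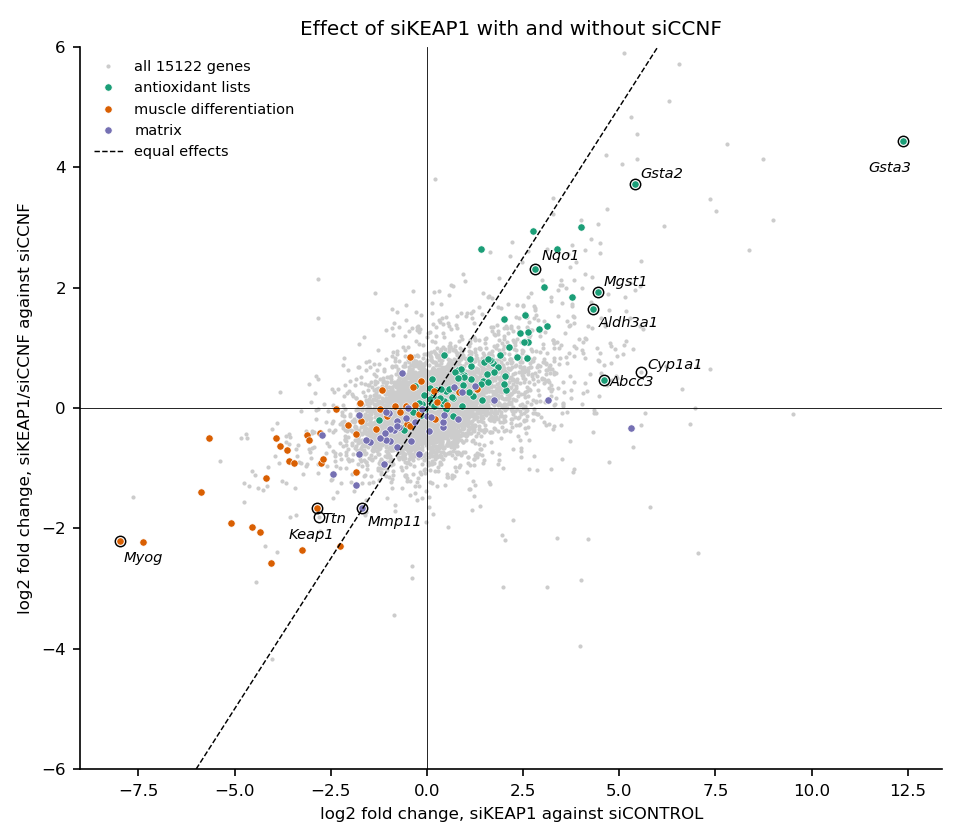
Each point is 1 of 15122 genes. The horizontal axis is the log2 fold change of siKEAP1 against siCONTROL, the vertical axis that of siKEAP1/siCCNF against siCCNF, and the dashed line marks equal effects. Antioxidant genes (green) lie mostly right of 0 and below the line, muscle genes (orange) spread far to the left and little downward, and Mmp11 lies on the line. Values of genes with few counts, such as Gsta3, depend on the prior count of the fit.

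The antioxidant genes are described by their roles, and their counts are to be read against the 3% of all genes that were higher and the 2.19% that were lower. In 62 of the 89 genes all 3 siKEAP1/siCCNF libraries lay apart from all 3 siCCNF libraries, as they did for 25.8% of all genes. The median log2 fold change of the 89 was 0.46, or 0.44 with 4 genes near 0 counts set to their bound, where the median of all genes was 0.0032. After siKEAP1 alone, 68 were higher and 4 lower, with a median of 0.97, where 20.4% of all genes were higher and 20.2% lower. Of the 45 that rose here, 44 also rose in control cells, 42 of these 44 by more, and 36 of the 44 had a negative interaction in the test of the difference. Fth1, a ferritin chain, was the one that rose here and did not pass the test in control cells. The 44 were chosen by their rise in both comparisons, the values that the interaction subtracts, which bears on its sign. Of all 89 genes, 48 had a negative interaction and 3 a positive one, where 10.5% and 10.6% of all genes did. The antioxidant genes also started from another level. In siCCNF libraries 62 of the 89 had a lower mean than in siCONTROL, with a median log2 ratio of -0.235, and their summed level was 8300 to 8540 CPM against 9880 to 11500 CPM in siCONTROL. With siKEAP1 added the sum was 11200 to 12500 CPM, and with siKEAP1 alone 20400 to 21300 CPM.

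The promoters of these genes were searched for the core of the antioxidant response element, TGACNNNGC, on both strands, in RefSeq windows of GRCm38.p6 from 250 bases before to 50 bases after each start. Of the 45 genes that rose, 36 had a window and 11 of these held the core, or 30.6%. Among the antioxidant genes not called, 4 of 38 held it, or 10.5%, and among all genes tested 1771 of 10546, or 16.8%. The core is 1 of many short words that occur by base composition, and elements farther from the start are outside the window. Sites upstream of 7 genes that rose are printed to show the core in its surroundings, and that of Sod1, 52 bases before its start, is not shown. They run in 5′ to 3′ order on the strand that holds the core, with the core in capitals. The core of Prdx1 and Pir also holds TGACTCA, the AP-1 motif.
Gclm, minus strand, chr3:122245413-122245441: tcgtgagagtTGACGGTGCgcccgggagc
Mgst1, minus strand, chr6:138140461-138140489: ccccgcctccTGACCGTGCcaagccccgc
Gsta3, plus strand, chr1:21240454-21240482: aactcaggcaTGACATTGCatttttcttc
G6pdx, plus strand, chrX:74428919-74428947: gcgtgtgcttTGACTGAGCtgacccgcct
Txnrd1, minus strand, chr10:82859104-82859132: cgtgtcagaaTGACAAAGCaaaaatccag
Prdx1, minus strand, chr4:116685456-116685484: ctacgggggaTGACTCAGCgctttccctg
Pir, minus strand, chrX:164269207-164269235: tttgggggagTGACTCAGCctctctatgc

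In the glutathione list 17 of 27 genes were higher and 0 lower. The median log2 fold change was 0.75 (0.70 with genes near 0 counts at their bound), and 0.33 to 0.80 over the alternatives. Gclc and Gclm encode the catalytic and the modifier subunit of glutamate-cysteine ligase, which makes the first intermediate of glutathione. Gclm, whose upstream core is printed above, had 26.1, 29 and 27.2 CPM in siCCNF and 45.4, 53.7 and 49.6 CPM in siKEAP1/siCCNF. The groups lay well apart, with a log2 fold change of 0.86 ± 0.07 (adjusted p = 1.92e-05), and the raised level was close to the siCONTROL mean of 53.2 CPM. In control cells Gclm rose by 2.33 on the log2 scale to a mean of 268 CPM, and the interaction was -1.48 (adjusted p = 1.44e-06). Gclc rose by 1.31 (38, 47.1 and 43 CPM to 109, 115 and 93.6 CPM; adjusted p = 3.15e-06). Slc7a11, the cystine transporter, rose from 3.45, 4.86 and 5.58 CPM to 9.76, 10.9 and 8.87 CPM, a log2 fold change of 1.09 ± 0.16 (adjusted p = 0.00143) where it was 2.63 in control cells (interaction -1.54, adjusted p = 0.000358). Gss, glutathione synthetase, was at 29.1, 31.5 and 26.4 CPM and 28.7, 31.1 and 35.5 CPM. These groups overlapped (log2 fold change 0.13, adjusted p = 0.506), whereas Gss rose by 1.42 in control cells. Gsr, the reductase that regenerates glutathione, rose by 0.75 (adjusted p = 3.63e-05).

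Of 18 glutathione transferases, which couple glutathione to reactive compounds, 12 rose and 0 fell. Gsta4, which acts on lipid aldehydes, had 38.1, 40.8 and 37.1 CPM after siCCNF and 136, 154 and 176 CPM after siKEAP1/siCCNF. The lowest double-depleted library lay at more than 3 times the highest siCCNF library, and the log2 fold change was 2.01 ± 0.09 (adjusted p = 4.59e-08) against 3.03 in control cells. The microsomal transferase Mgst1 had 3.45, 4.51 and 4 CPM in siCCNF and 13.2, 15.2 and 16.8 CPM in double-depleted libraries. Its log2 fold change was 1.92 ± 0.16 (adjusted p = 1.92e-05), while in control cells it rose by 4.44 to a mean of 95.1 CPM. Both changes were smaller than in control cells, with interactions of -1.03 for Gsta4 and -2.52 for Mgst1 (adjusted p = 8.91e-05 and 1.35e-05). Mgst2 rose by 1.36, Gstm1 by 1.47, Gsta1 by 3.01 and Gsta2 by 3.73 on the log2 scale. Gsta1 and Gsta2 had few counts in siCCNF, at most 27 and 9 in a library. Over the alternatives their lowest rises were 1.87 and 1.57. Gsta3 had 2, 0 and 1 counts in siCCNF and 14, 37 and 11 counts in siKEAP1/siCCNF, at least 7.71-fold higher (floor of 3 counts per library), and in control cells 0 counts became 593, 693 and 492, at least 175-fold higher. The call of Gsta3 was lost with limma on log2(FPKM + 1) (0.21, adjusted p = 0.193). Gsta1 and Gsta2, and the Gstm genes, are near-identical copies in stretches, and how reads shared between them were counted is not stated.

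Enzymes that supply NADPH, the reductant for glutathione and thioredoxin, were next. Of 9 tested 4 rose and 0 fell, with a median of 0.29. G6pdx, the entry enzyme of the pentose phosphate pathway, went from 62.1, 64.8 and 61.2 CPM to 110, 122 and 113 CPM, which brought it to the siCONTROL mean of 114 CPM. Its log2 fold change was 0.88 ± 0.06 (adjusted p = 2.61e-06), less than the 1.91 of control cells (interaction -1.04, adjusted p = 5.2e-06). Pgd, which follows it in the pathway, went from 140, 142 and 136 CPM to 245, 251 and 272 CPM. It also changed by 0.88 ± 0.07 (adjusted p = 2.16e-05), and unlike most of the list it rose by less in control cells, by 0.43, with an interaction of 0.44 (adjusted p = 0.00879). Tkt, transketolase, rose by 0.79 and Me1, malic enzyme, by 0.55 (adjusted p = 0.000516 and 6.26e-05). Idh1 had a log2 fold change of 0.21 and did not pass the test (adjusted p = 0.236).

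Among 19 genes of the thioredoxin and peroxide systems 7 rose and 0 fell, with a median of 0.31 (0.16 to 0.37 without 1 library). Txnrd1, cytosolic thioredoxin reductase, had 171, 197 and 184 CPM in siCCNF and 327, 339 and 290 CPM in siKEAP1/siCCNF. The libraries did not overlap and the log2 fold change was 0.79 ± 0.07 (adjusted p = 3.56e-05), where control cells gave 1.64 (interaction -0.85, adjusted p = 8.64e-05). Srxn1, which repairs overoxidised peroxiredoxins, rose by 0.64 (adjusted p = 0.000197), close to the 0.81 of control cells, with an interaction of -0.18 that did not pass the test (adjusted p = 0.241). Prdx1 and Prdx6, which reduce peroxides, rose by 0.52 and 0.77. Sod1, cytosolic superoxide dismutase, rose by 0.66 and Cat, catalase, by 0.56 (adjusted p = 0.00707 and 0.000379).

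In the detoxification list 10 of 22 genes rose and 0 fell, with a median of 0.42. The quinone and carbonyl enzymes made up 9 of these 10, of 13 tested. Nqo1 (ENSMUSG00000003849, chr8:107388225-107403206), a quinone reductase that is the standard readout of NRF2, had 30.7, 30 and 31.6 CPM in siCCNF and 143, 153 and 161 CPM in siKEAP1/siCCNF. The spread within either group was small beside this gap, and the log2 fold change of 2.31 ± 0.06 (adjusted p = 3.6e-10) was 0.51 below that of control cells, 2.82 (interaction adjusted p = 0.000976). Nqo1 was lower in siCCNF than in siCONTROL libraries, whose mean was 56.2 CPM, and its level with both siRNAs, 152 CPM, lay below the 397 CPM of siKEAP1 alone. Aldh3a1, an aldehyde dehydrogenase, had 39.4, 33.9 and 35.9 CPM and then 104, 117 and 120 CPM, a log2 fold change of 1.64 ± 0.14 (adjusted p = 2.4e-05). In control cells siKEAP1 brought Aldh3a1 from a mean of 59.5 to 1189 CPM, a change of 4.32, and the interaction was -2.68 (adjusted p = 3.26e-06). Akr1c14, an aldo-keto reductase, rose by 1.54 and Aox1, aldehyde oxidase, by 0.83.

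Of 9 genes of conjugation and export 1 was called. This was Ugt1a7c, a glucuronosyltransferase, at 0.057, 0.156 and 0.268 CPM in siCCNF and 1.23, 0.986 and 0.923 CPM in siKEAP1/siCCNF (log2 fold change 2.65, adjusted p = 0.0037). The size of this change rests on few counts, from 2.22 to 3.32 without 1 library and 0.26 with limma on log2(FPKM + 1). The UGT1A genes share their last exons, and how shared reads were assigned is not stated. Abcc3, an exporter of conjugates, had 1.65, 1.75 and 1.77 CPM and 2.18, 2.4 and 2.55 CPM. Its libraries did not overlap, yet the log2 fold change of 0.46 ± 0.16 did not pass the test (adjusted p = 0.125), and it was 4.60 in control cells. The interaction of Abcc3, -4.14 (adjusted p = 3.24e-07), was among the 8 most negative of genes with a mean of at least 1 log2 CPM. This mean is over all 12 libraries, so a gene can pass through the group where it is high. Abcc3 averaged 24.2 CPM with siKEAP1 alone, and 0.999, 1.72 and 2.38 CPM in siCONTROL, siCCNF and siKEAP1/siCCNF. Abcc4, a related exporter, had a log2 fold change of 0.31 (adjusted p = 0.214) against 2.06 in control cells.

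Of 12 iron and heme genes 7 rose and 0 fell, with a median of 0.46. Slc48a1, a heme transporter, went from 114, 123 and 121 CPM to 248, 256 and 266 CPM. It had tight replicates and a log2 fold change of 1.10 ± 0.06 (adjusted p = 1.67e-07). Hmox1, heme oxygenase, had 70.4, 83.8 and 76.8 CPM after siCCNF and 101, 101 and 111 CPM after siKEAP1/siCCNF, a change of 0.44 ± 0.08 (adjusted p = 0.00581). Unlike most antioxidant genes it had a siCCNF mean, 77 CPM, above the siCONTROL mean, 43.8 CPM, and it rose by 1.58 in control cells (interaction -1.14, adjusted p = 2.2e-05). Blvrb, biliverdin reductase, rose by 1.25, Pir, an iron-binding protein, by 1.02, and the ferritin chains Ftl1 and Fth1 by 0.82 and 0.48. Ferritin genes have many processed copies in the genome, which can take reads.

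**Figure D2:**
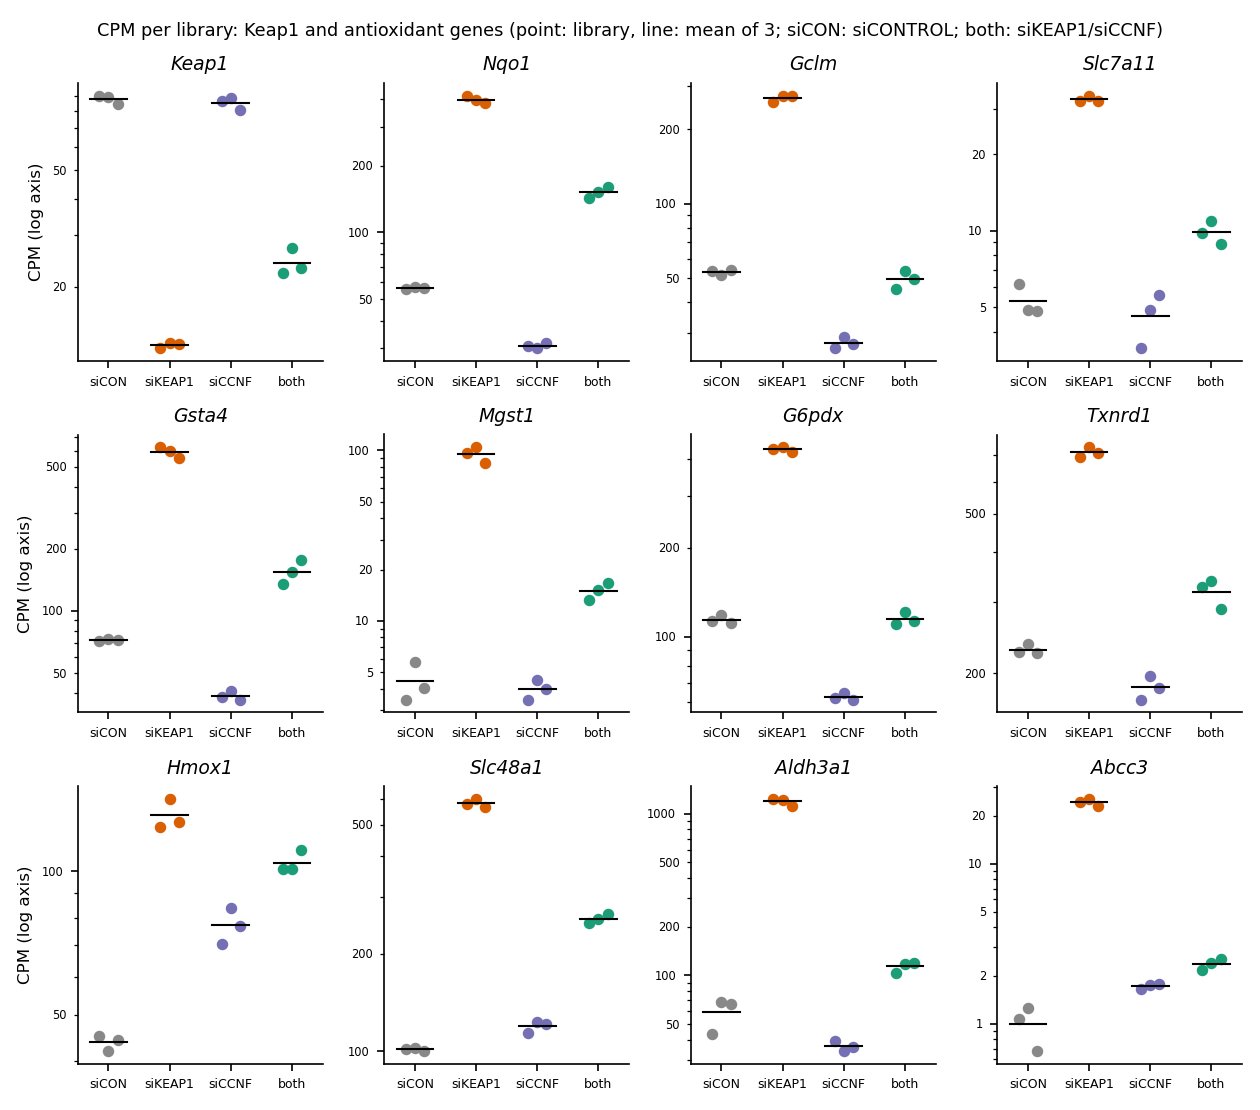
CPM on log axes for Keap1 and 11 antioxidant genes in each of the 12 libraries (points, 3 per group) with the group means (lines); siCON stands for siCONTROL and both for siKEAP1/siCCNF. Nqo1, at 143 to 161 CPM in the double depletion, lies above siCCNF at 30 to 31.6 CPM and below siKEAP1 alone, while Gclm and G6pdx with both siRNAs sit near siCONTROL and Abcc3 stays near 2 CPM.

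Among 14 regulators of NRF2, 2 were higher and 3 lower, where 3% of all genes were higher and 2.19% lower. The 3 include Keap1, the target of the siRNA. Sqstm1 encodes p62, an autophagy receptor that binds KEAP1, and it had 287, 315 and 306 CPM in siCCNF and 382, 397 and 430 CPM in siKEAP1/siCCNF (log2 fold change 0.41 ± 0.07, adjusted p = 0.00326). Cul3, the scaffold of the KEAP1 ligase, had a log2 fold change of -0.07 (adjusted p = 0.651). The mRNA of NRF2 itself, Nfe2l2, was at 125, 132 and 129 CPM and then 108, 112 and 109 CPM. This was a small decrease without overlap (log2 fold change -0.23 ± 0.05, adjusted p = 0.0243), and its call was lost without any of siCCNF replicates 1 to 3 or siKEAP1/siCCNF replicates 1 or 2 (adjusted p 0.0528 to 0.0843). It was also lost without TMM, without a filter, with the replicate block and with the compared libraries only (adjusted p = 0.0536, 0.117, 0.0509 and 0.0643). Mafg, a small MAF partner of NRF2, rose by 0.34 (adjusted p = 0.0115), and by 0.27 and 0.29 with adjusted p of 0.0668 and 0.0627 without siCCNF replicate 1 or siKEAP1/siCCNF replicate 2. Nfe2l1, a relative of NRF2, passed at an adjusted p of 0.0492 with a log2 fold change of -0.20 and lost its call in 11 of 12 fits that each left out 1 library (adjusted p 0.0602 to 0.167) and in the same 4 other fits as Nfe2l2 (adjusted p 0.0863 to 0.156).

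The aryl hydrocarbon receptor, which senses aromatic compounds, has targets that overlap those of NRF2. Of 8 genes tested from this list 2 rose and 1 fell, where 3% of all genes rose and 2.19% fell. Nqo1 and Aldh3a1 rose, which are also NRF2 targets and are counted above. The gene that fell was Arnt, which encodes the partner of the receptor, with a log2 fold change of -0.31 (adjusted p = 0.0446). Its call was lost in 10 of 12 fits that each left out 1 library (adjusted p 0.0569 to 0.153). The call was also lost without TMM, with the replicate block, with limma and with the compared libraries only (adjusted p = 0.0689, 0.0746, 0.0534 and 0.0548). Cyp1a1, the most specific target of the receptor, was at 3.59, 2.53 and 3.33 CPM in siCCNF and 4.17, 4.87 and 5.49 CPM in siKEAP1/siCCNF. The libraries were apart, and the log2 fold change of 0.60 ± 0.23 did not pass (adjusted p = 0.177), while DESeq2 called it at 0.0283. In control cells Cyp1a1 rose from a mean of 1.07 to 50.1 CPM, by 5.57, and the interaction was -4.97 (adjusted p = 2.75e-06). Ahr itself had log2 fold changes of 0.26 here (adjusted p = 0.432) and 1.94 in control cells, and Cyp1b1 of -0.15 (adjusted p = 0.5) and -1.14.

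Muscle differentiation genes fell in 8 of 50 cases and rose in 0 by edgeR (1 higher at an unadjusted p under 0.05, 0 by DESeq2 and 0 by limma). Of all genes, 2.19% were lower and 3% higher. The median log2 fold change of the list was -0.38, and -0.44 to -0.10 over the alternatives. The 8 became 3 without siCCNF replicate 1 or siKEAP1/siCCNF replicate 2 or 3, 4 or 5 without siCCNF replicate 3, siKEAP1/siCCNF replicate 1 or any siKEAP1 library, and 11 without siCONTROL replicate 1. It was 2 with limma, 1 with at least 10 counts in every library and 14 without a filter, and without both libraries that stood apart by gene length 14 were lower and 2 higher. In control cells 40 of the 50 were lower after siKEAP1, with a median of -1.85, where 20.2% of all genes were lower. Of the 50, 27 had a positive interaction and 2 a negative one, where 10.6% and 10.5% of all genes did. Myog (ENSMUSG00000026459, chr1:134289989-134292548), the myogenic factor that marks entry into differentiation, had 10.1, 6.84 and 7.35 CPM in siCCNF and 1.51, 1.76 and 2.02 CPM in siKEAP1/siCCNF. The groups lay apart, with a log2 fold change of -2.21 ± 0.36 (adjusted p = 0.0034). It was already lower in siCCNF than in siCONTROL, where the mean was 45.3 CPM, and siKEAP1 alone left 0.175 CPM (log2 fold change -7.99, interaction 5.78, adjusted p = 0.000122). Ttn, the giant spring of the sarcomere, had 4.82, 4.82 and 4.86 CPM and then 1.55, 1.69 and 1.27 CPM. It changed by -1.67 ± 0.18 (adjusted p = 0.000117) against -2.87 in control cells (interaction 1.20, adjusted p = 0.00515, a call lost with limma on log2(FPKM + 1), at 0.047 and adjusted p = 0.452). Neb, which sets thin filament length, went from 2.08, 2.1 and 2.36 CPM to 0.357, 0.554 and 0.395 CPM. Its log2 fold change of -2.29 ± 0.33 (adjusted p = 0.00139) was close to the -2.26 of control cells. Both are very long transcripts of low level per length, and limma on log2(FPKM + 1) called neither (adjusted p = 0.529 for Ttn and 0.192 for Neb).

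The other 5 muscle genes that passed the test were Actc1, Rbm24, Mymk, Myh3 and Myl1, which encode cardiac actin, a splicing regulator, the fusion protein myomaker, embryonic myosin and a myosin light chain. Their log2 fold changes were -2.22, -1.39, -1.97, -1.91 and -2.06. Each of these 5 lost its call in 3 to 10 of the 12 fits that left out 1 library, while Myog, Ttn and Neb kept theirs in all 12. Actc1 lost it without siCCNF replicate 1 (adjusted p = 0.082) and without siKEAP1/siCCNF replicate 2 or 3 (adjusted p = 0.0873 and 0.0512), and the adjusted p of the other 4 reached 0.145 to 0.181. With limma the calls of these other 4 were lost too (adjusted p 0.157 to 0.352). Actc1 had 5.84, 3.65 and 2.84 CPM and then 1.27, 0.585 and 0.835 CPM, so the direction was shared by all libraries. Myod1 and Myf5, the factors of the undifferentiated myoblast, did not move in a way the test could show. Myod1 was at 69.3, 78.3 and 80.2 CPM in siCCNF and 78.5, 76.1 and 85.9 CPM in siKEAP1/siCCNF (log2 fold change 0.08, adjusted p = 0.699), against a fall from 227 to 68.6 CPM in control cells (interaction 1.81, adjusted p = 1.26e-06). Myf5 had log2 fold changes of -0.09 (adjusted p = 0.602) and -1.05. Of 20 Notch and ID genes, which hold back differentiation, 0 passed the edgeR test, 4 had an unadjusted p under 0.05, and DESeq2 called 1 and limma 0. The edgeR test called 5.19% of all genes.

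Matrix genes fell in 14 of 41 cases and rose in 2, where 2.19% of all genes were lower and 3% higher. The median of the list was -0.31 against -0.72 in control cells. Of the 41, 32 had a higher mean CPM in siCCNF than in siCONTROL libraries and 9 a lower one. The sum over the list, in which Col3a1, Sparc, Fn1 and Col1a2 were the most abundant in siCCNF, was 41700 to 43300 CPM in siCCNF against 26100 to 31900 CPM in siCONTROL, and with siKEAP1 added the sum was 30600 to 33100 CPM. Mmp11, a secreted stromal protease, had 198, 176 and 180 CPM in siCCNF and 56.5, 54.9 and 63 CPM in siKEAP1/siCCNF. Its log2 fold change of -1.67 ± 0.07 (adjusted p = 4.38e-08) nearly equalled the -1.69 of control cells, and the interaction was 0.02 (adjusted p = 0.92). Col1a1 (ENSMUSG00000001506, chr11:94936224-94953042), which encodes a chain of type I collagen, had 1075, 940 and 942 CPM and then 420, 378 and 415 CPM. This was a log2 fold change of -1.29 ± 0.09 (adjusted p = 2.73e-06) against -1.84 in control cells. Col1a2, the partner chain, went from a mean of 4591 to 2715 CPM, by -0.76 (adjusted p = 2.32e-05), next to a siCONTROL mean of 2701 CPM, and fell by 1.76 in control cells (interaction 1.00, adjusted p = 1.38e-05).

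Further matrix genes moved the same way. Postn, periostin, had 111, 92.8 and 95.5 CPM in siCCNF and 49.1, 42.1 and 48.9 CPM in siKEAP1/siCCNF, a change of -1.10 (adjusted p = 3.42e-05). Tnc, tenascin C, changed by -0.92 (adjusted p = 0.00288), Col3a1 by -0.55, Col5a1 by -0.53 and Col6a2 by -0.56. Sparc, a collagen-binding glycoprotein, changed by -0.36 (adjusted p = 0.00989), a call lost in a fit of the 6 compared libraries only and with limma (adjusted p = 0.0565 and 0.0672). Of the genes in the list 9 stayed lower in all 12 fits that each left out 1 library, 22 were lower without siCONTROL replicate 1, and 23 without both libraries that stood apart by gene length. Col18a1, a basement membrane collagen, rose by 0.36 (adjusted p = 0.00993), and its call was lost without siCCNF replicate 1 or siKEAP1/siCCNF replicate 2 (adjusted p = 0.0636 and 0.0528). Fmod and Prelp, small proteoglycans of the matrix that were not in the list, were among the 15 largest falls, with log2 fold changes of -1.29 and -1.38.

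**Figure D3:**
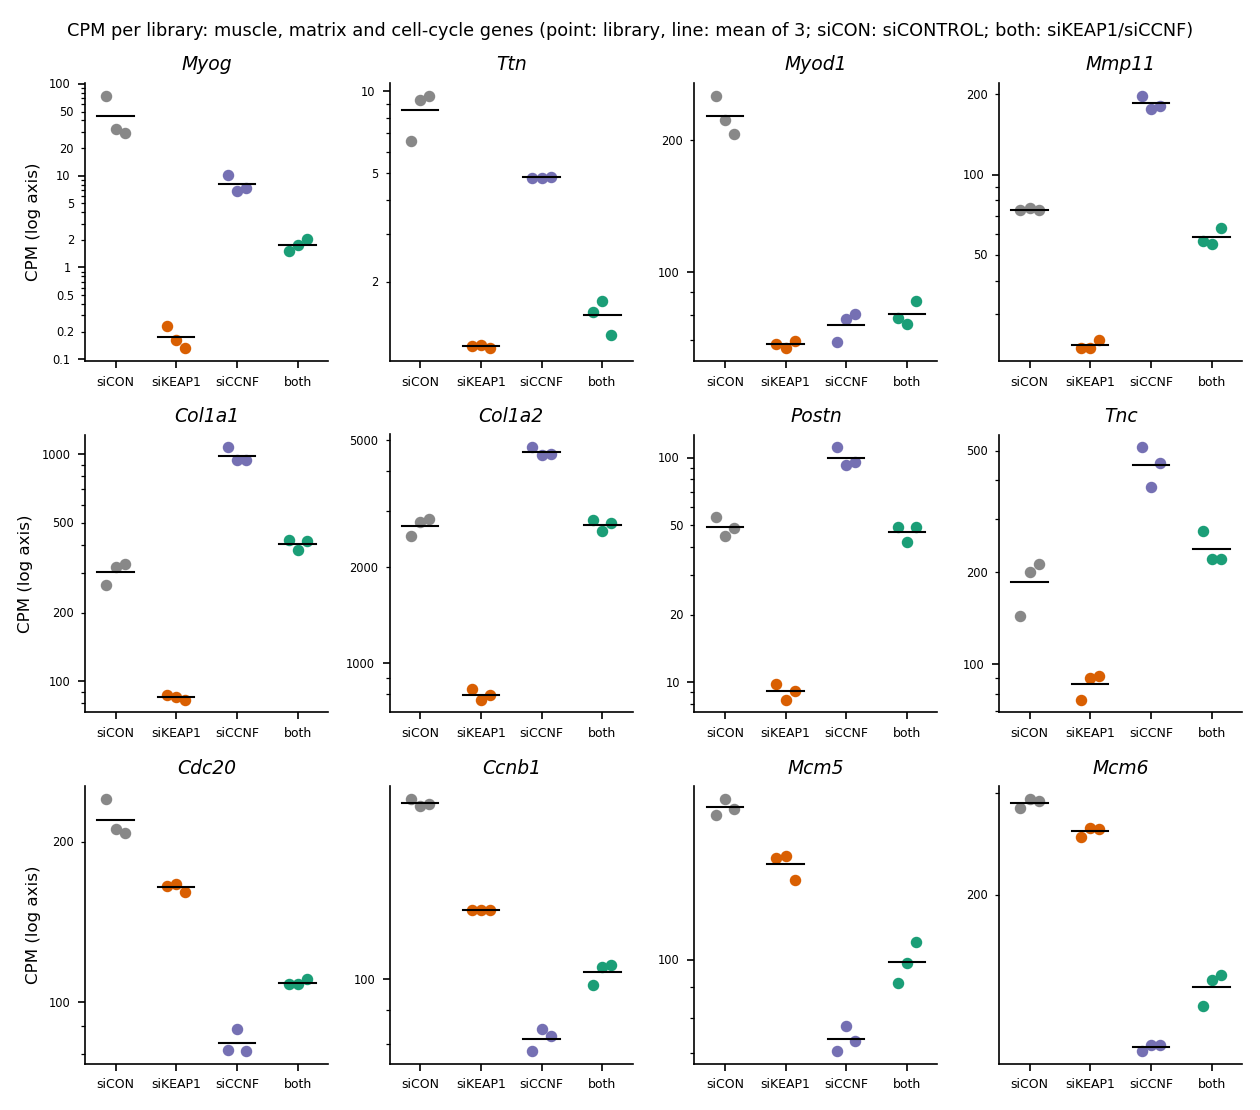
CPM on log axes for 12 muscle, matrix and cell-cycle genes in each of the 12 libraries (points, 3 per group) with the group means (lines); siCON stands for siCONTROL and both for siKEAP1/siCCNF. Myog and Ttn fall from siCCNF to the double depletion but stay above siKEAP1 alone, Col1a2 and Postn with both siRNAs sit near siCONTROL, and Cdc20, Ccnb1 and Mcm5 are higher with both siRNAs than with siCCNF and far below siCONTROL.

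Some cell-cycle genes rose by small amounts, and few of them stayed called in every fit that left out 1 library. Of 44 genes of G2 and mitosis 18 rose and 0 fell (0 lower also at an unadjusted p under 0.05, by DESeq2 and by limma), where 3% of all genes rose. The 44 log2 fold changes lay between 0.033 and 0.493, with a median of 0.25. In control cells siKEAP1 lowered 36 of the 44, with a median of -0.43, and 39 of the 44 had a positive interaction. Of all genes, 20.2% were lowered in control cells and 10.6% had a positive interaction. The count of 18 rested on single libraries. It was 2 without siCCNF replicate 1, 5 without siCCNF replicate 3, 5 without siKEAP1/siCCNF replicate 2, 12 without siKEAP1 replicate 1 or with the replicate block, 28 without siCONTROL replicate 1, 10 in a fit of the compared libraries only, and 39 without both libraries that stood apart by gene length, while the median stayed at 0.227 to 0.288. Cdc20, an activator of the anaphase-promoting complex, had 81.4, 89 and 80.8 CPM in siCCNF and 108, 108 and 110 CPM in siKEAP1/siCCNF. The groups did not overlap (log2 fold change 0.38 ± 0.07, adjusted p = 0.00568), and in control cells Cdc20 changed by -0.42 (interaction 0.80, adjusted p = 8.41e-05). Ccnb1, cyclin B1, went from 77.9, 84.1 and 82.3 CPM to 98, 104 and 105 CPM, by 0.33 ± 0.05 (adjusted p = 0.00342), against -0.53 in control cells (interaction 0.87, adjusted p = 1.16e-05). Cdc20 and Ccnb1 were the 2 genes of this list that stayed called in all 12 fits that each left out 1 library. Plk1, a mitotic kinase, rose by 0.38 (adjusted p = 0.00984) and lost its call without siCCNF replicate 1 (adjusted p = 0.0552).

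Of 54 genes of G1/S and replication 13 rose and 2 fell, where 3% of all genes rose and 2.19% fell. The median of the list was 0.23 against -0.31 in control cells. Of the 54, 35 had a positive interaction and 1 a negative one, where 10.6% and 10.5% of all genes did. Mcm5, a subunit of the replicative helicase, had 70.4, 77.5 and 73.2 CPM in siCCNF and 91.5, 98.6 and 107 CPM in siKEAP1/siCCNF. The log2 fold change was 0.43 ± 0.07 (adjusted p = 0.00342), and -0.31 in control cells (interaction 0.74, adjusted p = 0.000205). Mcm6, another helicase subunit, rose by 0.35 (adjusted p = 0.004). Of the list 3 genes stayed called in all 12 fits that each left out 1 library, Mcm5 and Mcm6 among them. The 13 rises became 3 without siCCNF replicate 1, 4 without siCCNF replicate 3 or siKEAP1/siCCNF replicate 2, 6 without siCCNF replicate 2 or siKEAP1/siCCNF replicate 3, 7 or 8 without any 1 of 5 libraries of the other groups, and 24 without siCONTROL replicate 1. They were 7 with the compared libraries only, 20 with the gene length trend removed, 21 with DESeq2 and 29 without both libraries that stood apart by gene length. The siCONTROL mean of Mcm5 was 179 CPM, above every library of both groups compared.

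Outside these lists the largest changes were of mixed function. Of the 15 largest rises among genes with a mean of at least 1 log2 CPM, 7 were antioxidant genes. Others included Trim54, a sarcomere-associated ubiquitin ligase (log2 fold change 2.56), Fbxo2, an F-box protein that binds glycans (2.05), Ppl, the plakin periplakin (2.03), the metal transporter Slc11a1 (1.91), the acyl-CoA synthetase Acsbg1 (1.76) and the serpin Serpinb9b (1.75). Gstm2-ps1, listed as a processed pseudogene, rose by 1.66. Ppl had 0.77, 1.01 and 0.429 CPM in siCCNF and 2.86, 3.6 and 2.15 CPM in siKEAP1/siCCNF (adjusted p = 0.00038), and siKEAP1 alone brought it to a mean of 41.6 CPM (log2 fold change 5.53, interaction -3.51, adjusted p = 3.41e-05). Among the 15 largest falls were Tmem158 (-1.41), the secreted C1qtnf3 (-1.24), the cytokine Tnfsf15 (-1.19) and Lrrn3 (-1.15). Tmem158 had 3.45, 3.34 and 3.89 CPM and then 0.675, 1.66 and 1.67 CPM (adjusted p = 0.00426) and did not pass in control cells (log2 fold change -0.31, adjusted p = 0.283), with an interaction of -1.10 (adjusted p = 0.0278) that lost its call in 5 of 12 fits that each left out 1 library (adjusted p 0.0515 to 0.0697).

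The remaining lists held few calls, to be read against the 3% of all genes that were higher and the 2.19% that were lower. Of 39 interferon response genes 0 passed the edgeR test, 1 was higher at an unadjusted p under 0.05, and DESeq2 and limma called 0. Of 33 proteasome genes edgeR, DESeq2 and limma called 0, with 6 higher at an unadjusted p under 0.05, and of 24 sterol and fatty acid genes edgeR called 0, DESeq2 1 and limma 0, with 3 at an unadjusted p under 0.05. Of 27 CDK inhibitors and p53 targets only Gdf15, a stress-induced cytokine, rose (0.70, adjusted p = 0.00989), and its call was lost without siCCNF replicate 1 or siKEAP1/siCCNF replicate 2 (adjusted p = 0.0611 and 0.0554). In control cells 15 of these 27 rose and 5 fell, where 20.4% of all genes rose and 20.2% fell. Of 25 acute phase and NF-kB genes 3 chemokines rose, Cxcl5 by 0.38 among them (adjusted p = 0.0151, and 0.0618 without siCCNF replicate 1). The count of 3 became 0 without siCCNF replicate 1 and 0 to 5 over all alternatives, and 0 of these genes stayed called higher in all 12 fits that left out 1 library. Of 40 ATF4 and unfolded protein genes 4 fell, led by Pycr1 of proline synthesis (-0.64, adjusted p = 0.0049), but the count was 1 or 2 without any 1 library other than siCONTROL replicate 1 (10) or siKEAP1/siCCNF replicate 3 (6), and 1 to 17 over all alternatives. Of 41 lysosome and autophagy genes 3 rose and 3 fell, which became 1 to 4 and 1 to 12 over the alternatives, and 1 of each stayed called in all 12 fits that left out 1 library. Gabarapl1, which conjugates to autophagosomes, rose by 0.44 (adjusted p = 0.00326). Of 12 IGF genes Igfbp6, a binding protein, rose by 0.56 and Igf1 changed by -0.92 (adjusted p = 0.0058 and 0.00964), the latter with adjusted p of 0.0541 and 0.0528 without siCCNF replicate 1 or siKEAP1/siCCNF replicate 2. H19, an imprinted noncoding RNA, had 272, 230 and 265 CPM and then 176, 168 and 227 CPM (log2 fold change -0.43, adjusted p = 0.113), against -4.69 in control cells (interaction 4.27, adjusted p = 1.3e-07).

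**Figure D4:**
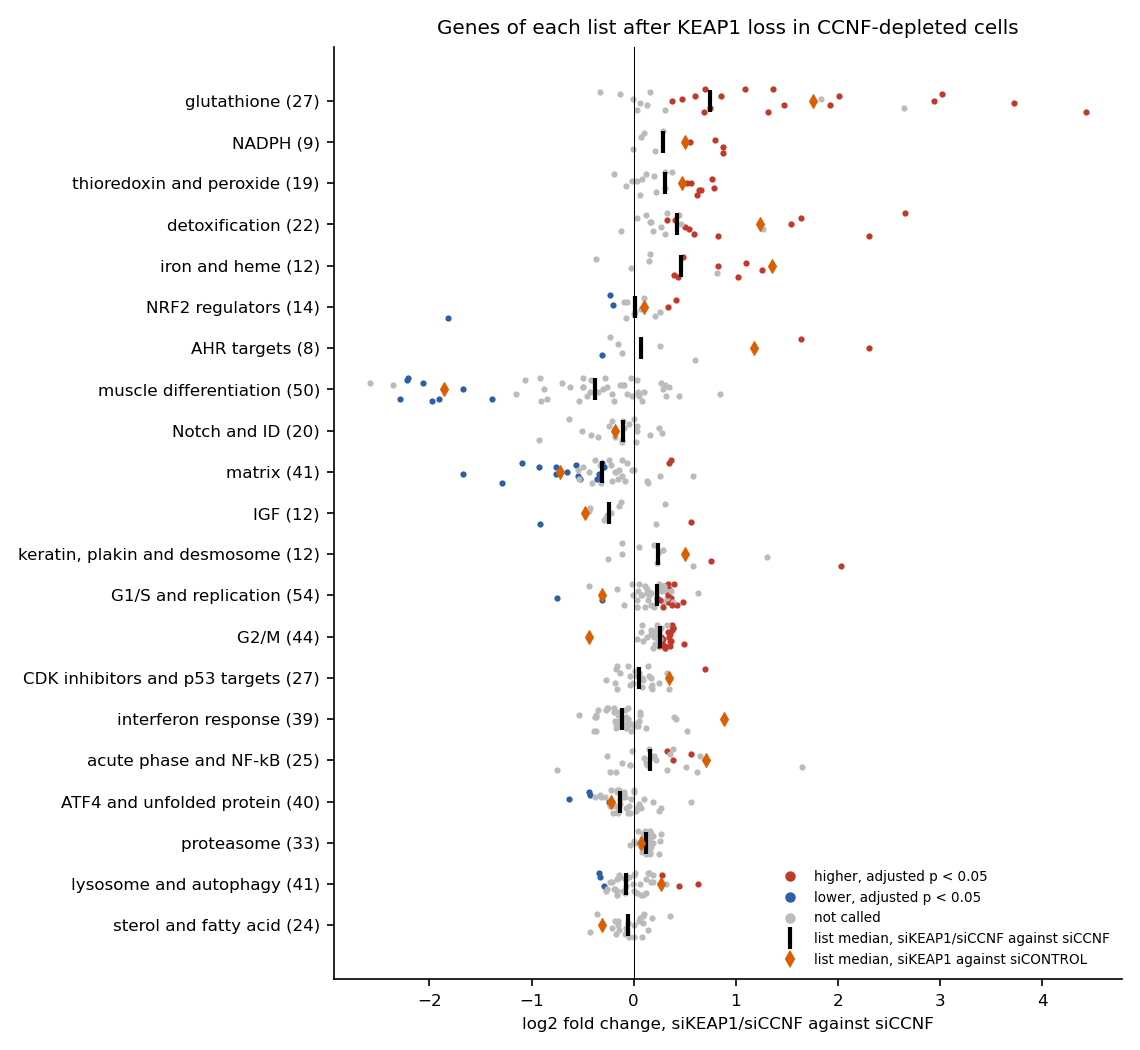
Log2 fold changes of siKEAP1/siCCNF against siCCNF for the tested genes of 21 lists (points, number tested in brackets), with red for higher and blue for lower at an adjusted p under 0.05. The black bar is the list's median in this comparison and the orange diamond its median for siKEAP1 against siCONTROL. The bars of the 5 antioxidant lists at the top lie between 0.287 and 0.751, that of muscle differentiation at -0.381 is far from its diamond at -1.85, and the bars of G1/S and G2/M lie right of 0 with their diamonds on the left.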

How the data were processed

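Poly(A)-selected RNA of 12 C2C12 libraries was sequenced by Novogene. The authors deposited a table of 54532 genes with, for each library, an unnormalized read count and an FPKM value per gene, besides their own log2 fold changes and p-values for comparisons with siCONTROL, which were not used. The submitters' processing notes name HISAT2 and GRCm39, whereas identifiers and coordinates in the table match GRCm38 (54495 genes matched to a GRCm38 annotation, 53548 or 98.3% with identical coordinates), so GRCm38 is given. The counting tool and its use of strand are not given in the sources used here.

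Tests on the counts used edgeR 4.0.16 (R 4.3.3). Low genes were removed with filterByExpr, libraries scaled by TMM, and 4 group means fitted to all 12 libraries with a quasi-likelihood F-test (8 residual degrees of freedom). Contrasts were siKEAP1/siCCNF against siCCNF, siKEAP1 against siCONTROL, and their difference (interaction). P-values were adjusted by Benjamini-Hochberg over 15122 genes. A list member was called at an adjusted p under 0.05, and counts over all genes also at over 2-fold. The SE of a log2 fold change was derived from its F statistic. CPM used effective library sizes. Groups whose libraries all had at most 3 counts were set to 3 counts per library for a bound. Bounds and counts cover counting error only. The code was tested on simulated counts.

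The comparison, the gene lists and the tests were chosen with earlier results of these data known. Named genes were Keap1, Ccnf, members of the lists, the 15 largest rises and falls (adjusted p under 0.05, mean of at least 1 log2 CPM, groups apart) and the 8 largest interactions of either sign, and some genes that this rule names are not reported here. Replicate libraries of a group were not duplicates. Where cultures are not described, p-values measure the spread between these samples.

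Alternatives were DESeq2 1.42.0, no TMM, no filter, at least 10 counts in every library, the replicate number as a block, limma 3.58.1 on log2(FPKM + 1) with the deposited FPKM, removal of a gene length trend (spline, 5 degrees of freedom), the compared libraries only, other thresholds, and each library left out. Leaving out both libraries that stood apart by gene length was chosen after seeing the data.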

Additional observations from a re-analysis of the deposited data

Results flagged for a closer look

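In CCNF-depleted cells siKEAP1 acted differently than in control cells, by the interaction term of the edgeR fit, for 3181 genes at an adjusted p under 0.05. The genes named here are those of the report and the 8 most extreme of either sign among genes that average 1 log2 CPM or more, and each value is the log2 effect in CCNF-depleted cells minus that in control cells. The average is over all 12 libraries, so a gene can pass through the group where it is high. Selp, for example, averaged 23.4 CPM with siKEAP1 alone, and 0.841, 0.756 and 0.967 CPM in siCONTROL, siCCNF and siKEAP1/siCCNF.

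Among the depleted genes, Keap1 had an interaction of 0.979 and Ccnf of 0.707, the latter from a log2 fold change of -0.45 after siKEAP1 in control cells and 0.26 here. Antioxidant genes with a smaller rise here were Gclm (-1.48), Slc7a11 (-1.54), Gsta4 (-1.03), Mgst1 (-2.52), G6pdx (-1.04), Txnrd1 (-0.85), Nqo1 (-0.512), Aldh3a1 (-2.68) and Hmox1 (-1.14), and Pgd rose more here (0.444). Abcc3, which did not pass the test here, had -4.14. Cyp1a1, a target of the aryl hydrocarbon receptor, had -4.97 and Ppl -3.51. Among muscle genes, Myog had 5.78, Rbm24 4.48, Myod1 1.81 and Ttn 1.2, the last with a call lost with limma on log2(FPKM + 1) (0.047, adjusted p = 0.452). The collagen gene Col1a2 had 1.00. The cell-cycle genes Cdc20 (0.799), Ccnb1 (0.866) and Mcm5 (0.74) rose here and were lower after siKEAP1 in control cells. Tmem158 had -1.1, with a call lost in 5 of 12 fits that each left out 1 library.

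Other genes with a rise in control cells that was not called here were Selp, an adhesion receptor (-4.34), Calr3, a calreticulin of the germ line (-4.31), Ptges, a prostaglandin E synthase (-4.08), and Pik3r5, a regulatory subunit of a phosphoinositide kinase (-3.49). Genes with a fall in control cells were H19 (4.27), Sfrp2, a secreted WNT antagonist (3.64), C1qtnf3 (3.5), Car3, a carbonic anhydrase (3.44), Omd, osteomodulin (3.4), and Sox8, a transcription factor (3.19). Of these 6, only C1qtnf3 was also called here (-1.24). The level of Sfrp2 was 851.7 CPM in siCCNF and 714 CPM in siKEAP1/siCCNF, against 768 CPM in siCONTROL and 51.8 CPM after siKEAP1 alone.

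Gapdh had the most negative value among genes that average 1 log2 CPM or more, -6.08, but its counts scattered within groups. They were 313, 196 and 397 in siCONTROL, 3616, 274 and 4620 after siKEAP1, 321, 2689 and 5814 after siCCNF, and 315, 303 and 292 after siKEAP1/siCCNF. Gapdh has many processed copies in the genome, and its call was lost with limma on log2(FPKM + 1) (-4.122, adjusted p = 0.0586). It is given as uncertain.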

How the results depend on the processing

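The count of 110 genes changed over 2-fold by siKEAP1/siCCNF against siCCNF was 148 with DESeq2, 116 without TMM, 151 without a filter, 133 with the gene length trend removed, 83 with the compared libraries only, 165 without both libraries that stood apart by gene length, and 77 to 142 without 1 library at a time. It was 61 with at least 10 counts in every library, 29 with limma on log2(FPKM + 1), 785 with no fold threshold and 419 with no p threshold. For siKEAP1 against siCONTROL, 1735 genes became 1062 with at least 10 counts, 623 with limma, 6133 with no fold threshold and 1612 to 1820 without 1 library at a time. The 3181 interactions became 936 over 2-fold, 4806 without both libraries and 2429 to 3397 without 1 library at a time. Keap1 kept its call, at -1.92 to -1.76 without 1 library. Ccnf passed the test with DESeq2 (0.26, adjusted p = 0.0401), without TMM (0.29, adjusted p = 0.0441) and without siCONTROL replicate 1 (0.25, adjusted p = 0.0452), and ranged from 0.22 to 0.28 without 1 library. The median of the antioxidant genes was 0.29 with limma, where the pseudocount compresses low genes, and 0.41 to 0.52 without 1 library, and 38 to 45 of the 45 rises kept their call, depending on the alternative. Replicate numbers did not pair the samples: same-numbered siCCNF and siKEAP1/siCCNF libraries had correlations of their deviations of -0.019, 0.107 and -0.0463, those of siCONTROL and siKEAP1 0.168, 0.0364 and 0.0886, those of siCONTROL and siCCNF 0.204, 0.0766 and 0.0795, and the replicate block gave 102, 1733 and 2964 genes. None of 80 named calls reversed in those of the 21 alternatives that gave a value for the gene, 62 of them kept their call in each of these, and 32 of 35 named interactions did, for which the compared libraries alone give no fit. The median of all genes moved by at most 0.033. Where a cause is not named, the cause was not tested. With 3 libraries a group the SE was near 0.07 for well-counted genes. How far depth and the number of libraries limit the calls of small changes in low genes was not tested.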

Other observations

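Of the 110 genes changed over 2-fold, 10 did not pass the adjusted p after siKEAP1 in control cells, and they were chosen for naming after their values were seen. Those higher here were Dynlt1a, a dynein light chain (log2 fold change 1.346), Hist4h4, a histone (1.937), Usp17le, a deubiquitinase (2.037), Zfp474 (1.912) and AA474408 (1.261). Those lower here were Gpr35, a G protein-coupled receptor (-1.497), Tmem158 (-1.405), 2810047C21Rik1 (-2.622), Gm47381 (-1.252) and Gm9987 (-1.205). Apart from Tmem158, which averaged 1.77 log2 CPM, all had a mean under 1 log2 CPM, and Dynlt1a and Usp17le belong to families of near-identical copies whose shared reads may be split.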
